A study of Mus musculus with 6 samples.

Results

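The genes described here encode 10 growth receptor tyrosine kinases: the ERBB receptors Egfr, Erbb2, Erbb3 and Erbb4, the hepatocyte growth factor receptor Met, the GDNF family receptor Ret, the PDGF receptors Pdgfra and Pdgfrb, the stem cell factor receptor Kit and the Gas6 receptor Axl. They were chosen by name, and all 10 were measured among 22180 genes, each by 1 probe set that carried its symbol alone, so no choice between probe sets had to be made for them. The samples came from KP1, a single cell line derived from a mouse small cell lung cancer of a model without Rb, p53 and p130, so both groups share these deletions. One group received an empty vector with an IRES and GFP (control, 3 arrays). The other received the Notch1 intracellular domain ahead of the same IRES and GFP (N1ICD, 3 arrays). GFP-positive cells were sorted 48 hours after transfection, and total RNA was hybridised to Affymetrix Mouse Gene 2.0 ST arrays. The labels name the samples of a group biological replicates and say nothing of separate cultures, so the p-values measure the spread between these samples.

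Values are log2 expression after RMA, a method that brings the arrays to a common distribution, so 1 unit is a factor of 2. A level can be compared between arrays for 1 gene but not between genes, since each probe set binds differently. The median level over all genes lay between 6.14 and 6.24 in the 6 arrays, and levels below it are called dim here; background was not measured. The probe set of Notch1, the transfected gene, rose by 1.59 ± 0.17 on the log2 scale (SE, limma adjusted p = 0.000889), and which part of the gene the probe set reads was not given. Of 14 neuroendocrine markers 12 were measured, and all 12 lay above every array median in all 6 arrays. A change in RNA per cell and a change in the share of cells that carry an RNA cannot be told apart in these bulk samples.

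Receptor tyrosine kinases span the cell membrane. A ligand outside brings 2 receptors together, their kinase domains phosphorylate each other, and adaptor proteins then pass the signal to the RAS-ERK and PI3K-AKT pathways. ERBB2 has no known soluble ligand of its own and ERBB3 has little kinase activity, so both act mainly as partners within the family, whereas EGFR and ERBB4 bind ligands and signal by themselves. KIT and its ligand have long been studied in small cell lung cancer, in which they are often made together, and AXL, MET and EGFR are better known from other lung cancers.

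The receptors did not move in 1 direction. Egfr, Erbb4 and Pdgfrb rose in N1ICD cells, Kit and Pdgfra fell, and Erbb2, Erbb3, Met, Ret and Axl did not pass the test. Thus 5 of 10 receptors were called by limma at an adjusted p under 0.05, 3 higher and 2 lower, against 7.10% of all genes tested (3.82% higher and 3.27% lower). The median log2 change was -0.03 over the 10 receptors and -0.02 over all genes. The 2 groups of arrays did not overlap for 6 of the 10 receptors, the 5 called ones and Erbb3, against 26.1% of all genes. For a single gene the exact two-sided permutation test over the 20 assignments of 6 arrays gave p = 0.1 for these 6, the smallest value that 3 against 3 arrays allow.

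**Figure D1:**
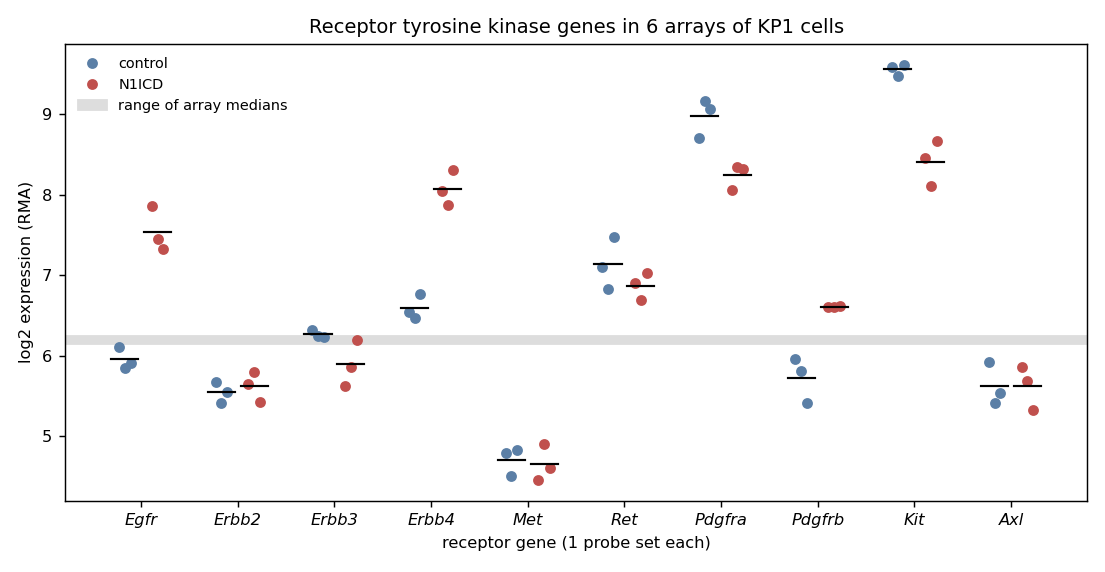
Log2 expression (RMA) of the 10 receptor genes in the 3 control arrays (blue) and the 3 N1ICD arrays (red); each point is 1 array, black bars are group means and the grey band spans the array medians from 6.14 to 6.24. Points of 1 gene can be compared with each other, points of different genes cannot; the groups are apart by more than 1 unit for Egfr and Erbb4 and lie on top of each other for Erbb2, Met and Axl.

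Among the ERBB receptors, the pair that binds ligand and signals by itself rose. The log2 level of Egfr, the receptor for EGF and its relatives, was 6.11, 5.84 and 5.90 in the control arrays and 7.85, 7.45 and 7.32 in the N1ICD arrays. Every N1ICD array was higher than every control array, with a gap of 1.21 between the groups. Egfr rose 3.01-fold (log2 change 1.59 ± 0.15 SE, limma adjusted p = 0.000557). Its control mean of 5.95 was below every array median, where RMA compresses differences, and its N1ICD mean of 7.54 was above.

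Erbb4, the neuregulin receptor with full kinase activity, stood at 6.55, 6.47 and 6.77 in control and at 8.05, 7.87 and 8.30 in N1ICD. Again no arrays overlapped, and the gap was 1.10. Erbb4 rose 2.79-fold (1.48 ± 0.14, adjusted p = 0.000462).

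Erbb2, the ERBB partner without a ligand, gave 5.68, 5.41 and 5.55 in control and 5.65, 5.79 and 5.43 in N1ICD. The groups overlapped, both means were dim, and the log2 change was 0.08 ± 0.13 (95% interval -0.21 to 0.37, adjusted p = 0.806). Erbb3, the neuregulin receptor with little kinase activity, gave 6.32, 6.24 and 6.23 in control and 5.62, 5.86 and 6.19 in N1ICD. Its N1ICD arrays were all lower, by as little as 0.04 between the nearest arrays, and the log2 change of -0.37 ± 0.15 (95% interval -0.71 to -0.04) was not called after adjustment over all genes (adjusted p = 0.201). The difference between a pair of receptors was also taken within each array, for pairs picked after their values were seen, so it is given as a description with no test. From control to N1ICD, Egfr gained 1.51 ± 0.16 (SE) on Erbb2 and Erbb4 gained 1.85 ± 0.16 on Erbb3.

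The PDGF receptors went opposite ways. These 2 receptors share ligands and are textbook markers of fibroblasts, glial progenitors and pericytes. Pdgfra was 8.70, 9.16 and 9.07 in control and 8.05, 8.34 and 8.32 in N1ICD, so each N1ICD array was lower than each control array. Pdgfra fell by 0.74 ± 0.14 on the log2 scale (adjusted p = 0.0202). This call was lost without control replicate 2, control replicate 3, N1ICD replicate 1 or N1ICD replicate 2, with changes of -0.65, -0.69, -0.65 and -0.79 and adjusted p of 0.073, 0.0736, 0.0649 and 0.0549. It was lost too when all probe sets were tested (adjusted p = 0.0812). The other member of the pair, Pdgfrb, was 5.95, 5.81 and 5.41 in control and 6.61, 6.60 and 6.62 in N1ICD, with all N1ICD arrays higher and nearly equal. Pdgfrb rose 1.85-fold (0.89 ± 0.14, adjusted p = 0.00836) from a dim control mean of 5.72. The difference Pdgfrb minus Pdgfra grew by 1.62 ± 0.28 from control to N1ICD. Of 12 fibroblast and pericyte markers, 0 passed the limma test, 3 had an unadjusted p under 0.05 (2 higher and 1 lower), and 11 had a dim control mean. The largest change was that of Fap (0.93 ± 0.26, dim in both groups, adjusted p = 0.0786, and 0.0346 with an intensity trend). Of these markers, 1 fell under equal array medians, an intensity trend or a block on the replicate number. Their mean log2 level per array was 5.29 to 5.36 in control and 5.34 to 5.51 in N1ICD.

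Kit, the receptor for stem cell factor, had the largest fall of the 10. It was 9.59, 9.48 and 9.61 in control and 8.46, 8.11 and 8.66 in N1ICD. All N1ICD arrays were lower, with a gap of 0.82, and both means were above every array median. Kit fell 2.22-fold (-1.15 ± 0.14, adjusted p = 0.00242). Mast cells also carry Kit, and the 9 mast cell markers measured all had dim means in both groups, with mean levels per array of 4.08 to 4.20 in control and 4.0 to 4.11 in N1ICD. Of these 9, 0 passed the limma test after adjustment and 4 had an unadjusted p under 0.05, 2 higher and 2 lower. The largest change was that of the protease Mcpt4 (-0.37 ± 0.15, adjusted p = 0.213, and 0.0288 without N1ICD replicate 1).

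The other 3 receptors did not pass the test. Ret, the signaling receptor of the GDNF family, was 7.10, 6.83 and 7.48 in control and 6.89, 6.69 and 7.02 in N1ICD, a log2 change of -0.27 ± 0.17 (95% interval -0.66 to 0.13, adjusted p = 0.454) with overlapping groups. Met, the receptor for hepatocyte growth factor, was 4.79, 4.50 and 4.82 against 4.45, 4.90 and 4.60, a change of -0.05 ± 0.14 (interval -0.38 to 0.28, adjusted p = 0.897). Axl, a receptor of the TAM family that binds Gas6, was 5.92, 5.41 and 5.53 against 5.86, 5.68 and 5.33, a change of 0.00 ± 0.18 (interval -0.40 to 0.41, adjusted p = 0.998). Met and Axl were dim in both groups, and a missed threshold does not show equal expression.

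**Figure D2:**
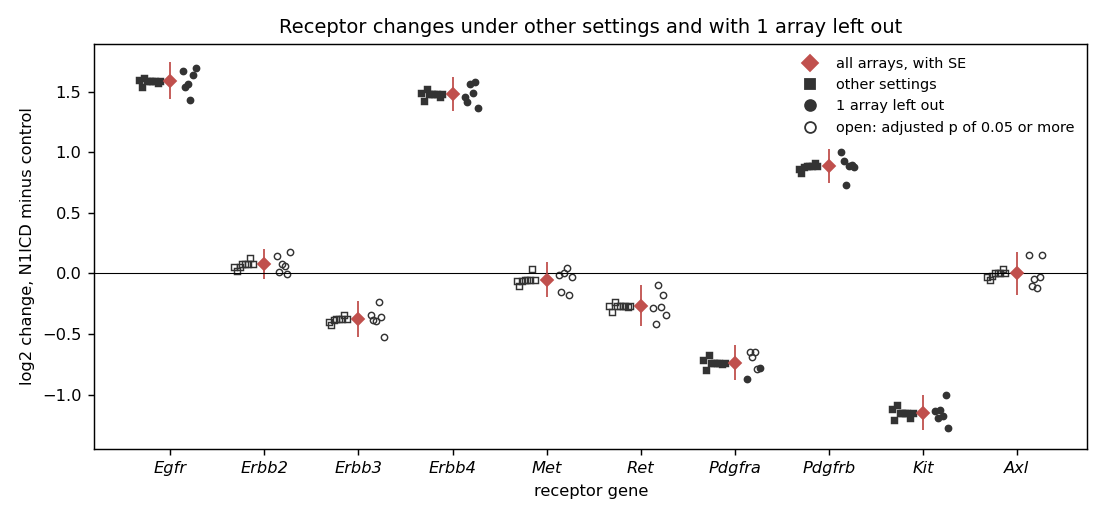
Log2 change (N1ICD minus control) of each receptor: red diamonds with SE are the fit to all 6 arrays, squares the 9 other settings, circles the fits with 1 array left out, and open symbols have an adjusted p of 0.05 or more. Egfr, Erbb4, Pdgfrb and Kit stay called throughout (Pdgfrb in the 8 settings that test it), while Pdgfra loses its call in 4 fits with 1 array left out and in 1 other setting.

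Promoter sequence is shown for the called receptors Egfr, Erbb4, Pdgfra and Kit, because Notch acts through the DNA-binding protein RBPJ. Met is shown too, as the only examined receptor with a match to the motifs given below. Entries of the RefSeq table (GRCm38.p6) were examined for 7 of the 10 receptors. The other receptors, a called one among them, were not analysed here for promoter sequence. Each entry runs from 250 bases before to 50 bases after the start site, and both strands were searched for 3 motifs: TGGGAA, the core of the RBPJ site, and CACGTG and CACGCG, which HES and HEY repressors can bind. The 250 bases before the start site are printed 5′ to 3′ on the strand of the gene, with motif matches in capitals.
Egfr: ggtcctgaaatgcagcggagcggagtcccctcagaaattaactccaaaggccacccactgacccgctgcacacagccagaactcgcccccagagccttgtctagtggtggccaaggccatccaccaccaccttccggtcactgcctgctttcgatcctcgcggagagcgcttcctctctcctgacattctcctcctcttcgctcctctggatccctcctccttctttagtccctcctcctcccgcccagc
Erbb4: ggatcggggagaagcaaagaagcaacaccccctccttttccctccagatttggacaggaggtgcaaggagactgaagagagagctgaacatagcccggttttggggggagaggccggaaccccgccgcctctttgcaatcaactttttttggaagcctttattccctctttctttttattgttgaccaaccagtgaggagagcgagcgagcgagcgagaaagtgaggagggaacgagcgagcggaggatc
Pdgfra: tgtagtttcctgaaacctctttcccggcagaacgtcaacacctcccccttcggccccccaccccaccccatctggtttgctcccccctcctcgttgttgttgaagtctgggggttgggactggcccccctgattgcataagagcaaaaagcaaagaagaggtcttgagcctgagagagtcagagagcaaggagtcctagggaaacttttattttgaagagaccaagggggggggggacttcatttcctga
Kit: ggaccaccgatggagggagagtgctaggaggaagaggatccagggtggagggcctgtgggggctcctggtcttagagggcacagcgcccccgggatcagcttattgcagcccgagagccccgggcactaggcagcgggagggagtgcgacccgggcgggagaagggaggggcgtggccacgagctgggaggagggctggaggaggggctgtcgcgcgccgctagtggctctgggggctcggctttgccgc
Met: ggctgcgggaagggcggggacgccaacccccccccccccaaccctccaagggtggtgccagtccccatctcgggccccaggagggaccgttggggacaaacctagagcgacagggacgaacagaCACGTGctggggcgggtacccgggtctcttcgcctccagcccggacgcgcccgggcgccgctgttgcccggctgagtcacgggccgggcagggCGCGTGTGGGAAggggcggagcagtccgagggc
These stretches lie at chr11:16751953-16752202 (plus strand) for Egfr, chr1:69108060-69108309 (minus strand) for Erbb4, chr5:75152001-75152250 (plus strand) for Pdgfra, chr5:75574737-75574986 (plus strand) for the first of the Kit start sites and chr6:17463707-17463956 (plus strand) for Met. None of the 3 motifs was found in the entries of Egfr, Erbb4, Pdgfra or Kit, nor in those of Erbb2 and Axl. Met held 1 match of each, TGGGAA on its own strand and next to it CACGCG on the other strand. Of 32851 promoters in the table, 25.6% held TGGGAA, 7.15% CACGTG and 9.27% CACGCG. The GC content of the whole entries was 62.3% for Egfr, 55.3% for Erbb4, 69.0% for Kit and 51.0% for Pdgfra, against a median of 52.7%. Among receptors that were not called it was 75.7% for Met, 66.0% for Erbb2 and 60.3% for Axl.

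Of 22 ligand genes measured, Pdgfc alone was called. In the limma fit 1 rose and 0 fell, that is 4.55% against 7.10% of all genes, and at an unadjusted p under 0.05 there were 1 higher and 2 lower. The median log2 change was 0.01. Growth factor ligands bind the receptor from outside the cell and may be made by the same cell or by a neighbour. For Egfr, none of the 6 measured ligands was called in the limma fit, and Areg was not analysed here. Tgfa changed by 0.20 ± 0.12, Hbegf by -0.04 ± 0.11, Egf by -0.07 ± 0.11, Ereg by -0.02 ± 0.09 and Epgn by 0.01 ± 0.12. Btc, betacellulin, which binds both EGFR and ERBB4, was 6.79, 6.83 and 7.13 in control and 6.40, 6.47 and 6.52 in N1ICD. Its log2 change of -0.45 ± 0.12 lay just outside the threshold (adjusted p = 0.0558) although all N1ICD arrays were lower. It passed under equal array medians, without dim genes, with an intensity trend and with array weights (lowest adjusted p = 0.0169).

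The neuregulins, ligands of ERBB3 and ERBB4, stayed within 0.10 of 0 on the log2 scale. Nrg1 changed by -0.09 ± 0.12, Nrg2 by 0.10 ± 0.11, Nrg3 by -0.05 ± 0.13 and Nrg4 by 0.05 ± 0.10, with adjusted p from 0.703 to 0.905 in the limma fit. Kitl, the ligand of KIT, was 8.62, 8.91 and 9.14 in control and 8.68, 9.06 and 9.22 in N1ICD. These groups overlapped (0.10 ± 0.18, adjusted p = 0.824), so Kit fell and its ligand was not called.

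The ligand that rose was Pdgfc, whose product, once cleaved, binds PDGFRA. It was 6.68, 6.55 and 6.55 in control and 7.28, 7.65 and 7.30 in N1ICD. All N1ICD arrays were higher, and Pdgfc rose 1.76-fold (0.82 ± 0.12, adjusted p = 0.00622). Pdgfa changed by -0.29 ± 0.09 (adjusted p = 0.124, and 0.0387 without dim genes), Pdgfb by 0.21 ± 0.11 and Pdgfd by -0.03 ± 0.16. Of the PDGF genes, a receptor and a ligand thus rose and the other receptor fell.

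Of 11 co-receptors and binding partners measured, 2 rose and 3 fell (45.5% against 7.10% of all genes, median log2 change -0.08). RET needs a GFRA co-receptor on the membrane to bind its ligand: GFRA1 prefers GDNF, GFRA2 neurturin, GFRA3 artemin and GFRA4 persephin. Gfra2 was 6.06, 5.49 and 5.98 in control and 9.07, 8.88 and 8.88 in N1ICD, a gap of 2.82 between the groups. Gfra2 rose 8.59-fold (3.10 ± 0.16, adjusted p = 1.69e-05) from a dim control mean. Gfra4 moved the other way, from 7.80, 7.94 and 7.66 in control to 6.89, 7.0 and 7.10 in N1ICD. It fell by 0.80 ± 0.11 on the log2 scale (adjusted p = 0.00395), and the difference Gfra2 minus Gfra4 grew by 3.91 ± 0.28. The remaining RET partners, added after their values were seen, were not called: Gfra1 changed by -0.29 ± 0.12, Gfra3 by 0.04 ± 0.15, Nrtn by -0.11 ± 0.14, Gdnf by 0.04 ± 0.16, Artn by 0.21 ± 0.13 and Pspn by 0.17 ± 0.17. Gfra2 rose and Gfra4 fell, and Ret itself was not called.

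The remaining called co-receptors act beyond RET. Cd44, a hyaluronan receptor that can present ligands to MET and ERBB receptors, rose by 1.69 ± 0.14 (adjusted p = 0.00024). Nrp1, a semaphorin and VEGF co-receptor that also binds growth factor receptors, fell by 0.78 ± 0.16 (adjusted p = 0.0257), a call lost without control replicate 2 or 3 or N1ICD replicate 1 or 2 (highest adjusted p = 0.087). The heparan sulfate proteoglycan Gpc1 fell by 0.55 ± 0.11 (adjusted p = 0.0243), a call that held with N1ICD replicate 1 removed and with no other single array removed (adjusted p up to 0.0889), and by 0.27 at a second, dimmer probe set. With control replicate 2 or 3 or N1ICD replicate 2 removed, or with every probe set tested, 1 co-receptor fell.

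**Figure D3:**
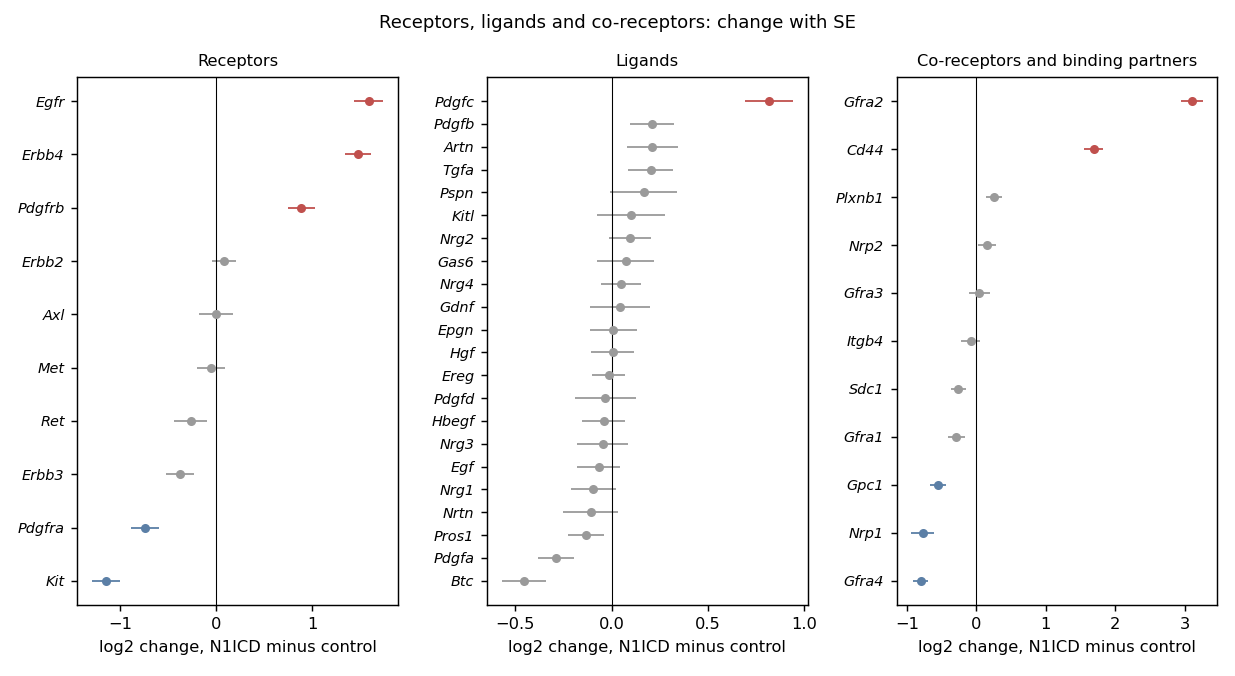
Log2 change (N1ICD minus control, horizontal axis, a separate scale for each panel) with its SE for the 10 receptors, 22 ligands and 11 co-receptors; red rose, blue fell, grey did not pass the limma test. Receptors and co-receptors spread to both sides of 0, whereas all ligands but Pdgfc are grey.

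Of 29 brakes on receptors and RAS, 3 rose and 0 fell in the limma fit, that is 10.3% against 7.10% of all genes (median log2 change -0.02). At an unadjusted p under 0.05 there were 4 higher and 2 lower, and 1 fell under equal array medians, an intensity trend or array weights. A share this near that of all genes is no result about the brakes as a group. The 3 that rose were Lrig1, Errfi1 and Lrig3. Lrig1, a membrane protein that promotes the breakdown of ERBB receptors and MET, was 7.50, 7.59 and 7.70 in control and 8.66, 8.38 and 8.54 in N1ICD. The groups were clear of each other and Lrig1 rose 1.91-fold (0.93 ± 0.11, adjusted p = 0.00172). Errfi1, also called MIG6, which binds and inhibits the EGFR kinase domain, was 6.74, 6.90 and 7.06 in control and 7.44, 7.65 and 7.99 in N1ICD. It rose by 0.80 ± 0.16 (adjusted p = 0.02), a call lost without control replicate 1 or 2 or N1ICD replicate 2 (highest adjusted p = 0.0677). Lrig3, a relative of Lrig1, rose by 0.52 ± 0.11 (adjusted p = 0.029), a call that held only with N1ICD replicate 3 removed (adjusted p up to 0.0898 with another array removed). With control replicate 1 or 2 or N1ICD replicate 2 removed, Lrig1 alone of the 3 was called. The ubiquitin ligases Cbl (-0.25 ± 0.12) and Cblb (-0.02 ± 0.12), which tag active receptors for breakdown, and the Sprouty genes Spry2 (0.05 ± 0.09) and Spry4 (-0.35 ± 0.17), all named after their values were seen, did not pass the test.

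Genes known to follow ERK activity did not move as 1 group. Of 19 measured, 6 rose and 4 fell (52.6% against 7.10% of all genes, median log2 change -0.05), a list that was drawn up with earlier results of these arrays known. The rises were led by the cyclin Ccnd1 (5.41 ± 0.17), which is also counted among Notch target genes, the membrane protein Emp1 (1.85 ± 0.16, 0.86 at a second, dimmer probe set), the stress response gene Ier3 (1.53 ± 0.13) and the ephrin receptor Epha4 (1.09 ± 0.17). The falls included Dusp4 (-1.11 ± 0.11, adjusted p = 0.000816) and Dusp5 (-1.02 ± 0.13, adjusted p = 0.00257), phosphatases that ERK induces and that inactivate ERK. Named after their values were seen to complete the counts, Phlda1 (0.81 ± 0.11) and Etv1 (0.46 ± 0.10) rose, and the transcription factors Etv5 (-0.77 ± 0.10) and Egr1 (-0.86 ± 0.15) fell. Removing any single array ended the call of Etv1 (adjusted p up to 0.13). This call was also lost with its probe sets averaged (0.154) and with every probe set tested (0.113). Repeated quantile normalization (0.0519) and equal array medians (0.0663) ended it too. A second, dimmer probe set of Etv5 changed by -0.13 and one of Etv1 by 0.17. Dusp6, a direct readout of ERK in many cells and named in the same way, was 10.37, 9.85 and 10.33 in control and 9.88, 9.66 and 10.13 in N1ICD, with overlapping groups (-0.29 ± 0.17, adjusted p = 0.412).

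**Figure D4:**
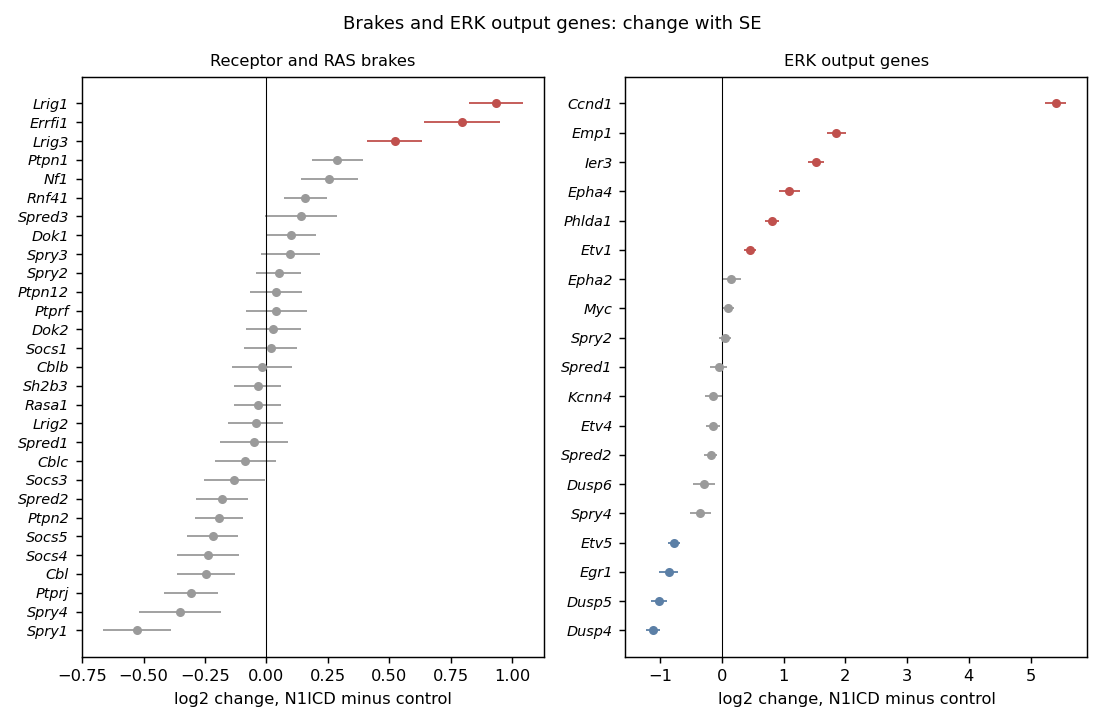
Log2 change (N1ICD minus control, horizontal axis, a separate scale for each panel) with its SE for 29 brakes on receptors and RAS and for 19 ERK output genes; red rose, blue fell, grey did not pass the limma test. The called members of the brake list, Lrig1, Errfi1 and Lrig3, lie to the right of 0. The called ERK output genes lie on both sides, from Dusp4 at -1.11 to Ccnd1 at 5.41.

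Of 36 adaptors, GTPases and kinases measured, 2 rose and 1 fell (8.33% against 7.10% of all genes, median log2 change -0.03). The transcription factor Stat3 rose by 0.62 ± 0.13 (adjusted p = 0.0267), the RAS exchange factor Sos2 rose by 0.55 ± 0.11 (adjusted p = 0.0252) and the adaptor Grb10 fell by 0.51 ± 0.12 (adjusted p = 0.0439). These calls rested on nearly all arrays. Removing any single array ended the call of Sos2 (adjusted p up to 0.103). The call of Stat3 held only with N1ICD replicate 1 removed (up to 0.084 otherwise) and that of Grb10 only with N1ICD replicate 3 removed (up to 0.151 otherwise). Another 8 listed genes were not analysed here.

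Of 15 proteases and protease inhibitors that free or activate ligands, 3 rose and 2 fell (33.3% against 7.10% of all genes, median log2 change 0.03). The rhomboid protease Rhbdl2 rose by 0.79 ± 0.11 (adjusted p = 0.00421) with dim means in both groups. Adam19 and Adam12, metalloproteases of a family that sheds membrane-bound ligands, rose by 0.49 ± 0.09 and 0.49 ± 0.11. The serine protease Plau fell by 0.83 ± 0.16 and Spint2, an inhibitor of the protease that activates hepatocyte growth factor, fell by 0.65 ± 0.13. Rhbdl2 kept its call without any 1 array. Adam19 lost it when control replicate 1 or 2 or N1ICD replicate 2 was removed (adjusted p up to 0.0669) and with its probe sets averaged (0.104), since a second, dimmer one changed by 0.16. Adam12 kept it only with control replicate 1 removed (up to 0.114 otherwise), so with control replicate 2 or N1ICD replicate 2 removed 1 protease rose. Plau lost it when control replicate 1 or 3 or N1ICD replicate 2 was removed (up to 0.0632), and Spint2 kept it only with N1ICD replicate 3 removed (up to 0.0921 otherwise). With control replicate 1 or 3 or N1ICD replicate 2 removed, neither was called.

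Pdgfra and Kit are neighbours in the genome. In the RefSeq gene order of mouse chromosome 5, Pdgfra is followed by Kit and then by Kdr, a VEGF receptor, with no other protein-coding gene between them. The order was looked up after the values were seen. Of these 3 adjacent receptor genes, Pdgfra and Kit fell and Kdr rose 8.20-fold (3.04 ± 0.17, adjusted p = 2.77e-05), from 6.98, 6.62 and 6.68 in control to 9.46, 9.87 and 10.05 in N1ICD. Of the 4 genes on either side, Lnx1 fell by 0.44 ± 0.10 (adjusted p = 0.0432) and the other 7 were not called. The call of Lnx1 held with control replicate 1 removed and with no other single array removed (adjusted p up to 0.154), and it was lost under cyclic loess (0.0612) and with every probe set tested (0.13). Gsx2, next to Pdgfra, changed by 0.00 ± 0.11 and Srd5a3, next to Kdr, by 0.17 ± 0.11.

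**Figure D5:**
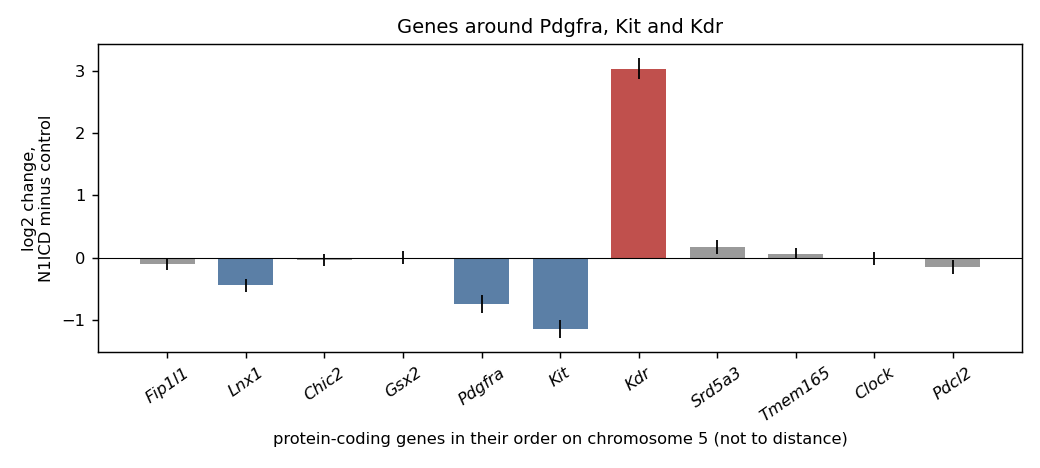
Log2 change (N1ICD minus control, vertical axis) with its SE for 11 protein-coding genes in their order on mouse chromosome 5, evenly spaced and not to distance; red rose, blue fell, grey did not pass the limma test. Pdgfra at -0.74 and Kit at -1.15 stand beside Kdr at 3.04, and the flanking genes are near 0 but for Lnx1 at -0.44.

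For each called receptor, the genes with the most similar profile were found by the root mean square distance between log2 values over the 6 arrays, each gene centred on its own mean. The profiles nearest to Egfr were those of Ncan, Acer3 and Adarb1, at distances of 0.07, 0.11 and 0.11. Erbb4 was nearest to Kif26b, Ptpn13 and Antxr1 (0.08, 0.09 and 0.12), and Pdgfrb to Aox1, Smad3 and Plscr1 (0.09, 0.09 and 0.10). Kit was nearest to Sh2d5, Hdac9 and Iapp (0.08, 0.08 and 0.09), and Pdgfra to Cdca7l, Rasgrf2 and Epb41l4a (0.07, 0.08 and 0.08). None of the 10 receptors was among these nearest genes, which says little, since only 3 of 22180 genes were taken for each.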

How the data were processed

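The 6 arrays hold 1 sample each. The authors deposited log2 values after RMA, per the submitters' processing notes, which give no version; the base of the logarithm and the genome build are not given in the sources used here, and base 2 was taken. The table held 41345 probe sets, of which 23521 carried 1 gene symbol, 1814 several and 16010 none in the platform annotation. Symbols were updated through gene identifiers, and each gene was read from the probe set with the highest mean level, which gave 22180 genes. No filter on dim genes was applied.

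N1ICD was compared with control with a two-sided moderated test (limma 3.58.1, R 4.3.3) and Benjamini-Hochberg adjustment over all genes at a threshold of 0.05. The code of the fit was tried on simulated data with independent noise, which does not test how well it suits these arrays. Each ± after a change is its SE. Alternatives were 3 normalizations, a filter on dim genes, 2 treatments of probe sets, an intensity trend, array weights, a block on the replicate number, and removal of single arrays. Figures used matplotlib 3.10.9.

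The receptors, the 14 lists and the rules were chosen with earlier results of these data known. Named were the 10 receptors, Notch1, ligands of called receptors, at most 6 called members of each list by size (the largest change where none was called) and the 3 nearest profiles of each called receptor; other names were added after their values were seen.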

Additional observations from a re-analysis of the deposited data

How the results depend on the processing

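The count of 5 called receptors stayed at 4 or 5 under all 15 alternatives. The 4 arose from Pdgfra when all probe sets were tested or with 1 of 4 arrays left out, and from Pdgfrb, which the filter on dim genes removed. Over all genes, 1574 were called, 848 higher and 726 lower. With 1 array left out the counts were 823 to 1230 in all, 548 to 709 higher and 275 to 585 lower. Testing every probe set gave 805 (548 higher and 257 lower), leaving out dim genes gave 1289 lower, and an intensity trend with robust eBayes gave 1227 lower. Equal array medians shifted the split to 730 higher and 948 lower. The cause was not tested. The deviations of same-numbered arrays from their group means correlated at 0.23, 0.01 and 0.20. Differently numbered arrays were not compared, so whether the replicate numbers pair the samples was not tested. With the replicate block 1518 genes and 5 receptors were called, and Lrig3, Adam12, Ncam1, Hopx, Fgfr4 and Lnx1 lost their call. Of 73 called genes refitted by name, the nearest profiles and the neighbours of Pdgfra and Kit included, 47 kept their call in every alternative that tested them and 26 lost it in at least 1; of 44 not called, 4 passed in at least 1. None of the 73 changed direction.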

Other observations

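Of 46 other receptor tyrosine kinases measured, 11 rose and 5 fell (34.8% against 7.10% of all genes), and the difference from the 5 of 10 receptors described above was not tested. The largest rises after Kdr were Fgfr2 (2.32 ± 0.16 SE), the ephrin receptor Ephb1 (2.26 ± 0.10), the neurotrophin-3 receptor Ntrk3 (2.11 ± 0.11) and Alk (1.69 ± 0.11), all with limma adjusted p of at most 0.000111. A second, dimmer probe set of Ephb1 changed by 0.80. Epha3 fell by 1.64 ± 0.12 on the log2 scale. Tyro3, a relative of Axl that also binds Gas6, was 6.02, 5.64 and 6.06 in control and 6.82, 7.07 and 7.07 in N1ICD. It rose by 1.08 ± 0.14 (limma adjusted p = 0.00299), while the third TAM receptor, Mertk, changed by -0.01 ± 0.14. The TAM ligand genes Gas6 (0.07 ± 0.15) and Pros1 (-0.13 ± 0.10) were not called. Tyro3, Mertk, Gas6 and Pros1 were named after their values were seen.

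Against 7.10% of all genes, the called shares were 25.0% of endothelial, 10.0% of macrophage, 44.4% of alveolar and airway and 33.3% of neuroendocrine markers. Of 8 endothelial markers, the ones that rose were the receptor genes Kdr and Tek (1.06 ± 0.14), and 6 had dim means in both groups. Of 10 macrophage markers 1 rose, Lyz2 (0.52 ± 0.12), a call that ended when any single array was removed (adjusted p up to 0.11), and 9 had dim means in both groups. Of 9 alveolar and airway markers measured, Scgb1a1 (1.23 ± 0.12, dim in both groups) and Hopx (0.38 ± 0.09) rose and Sftpc (-1.71 ± 0.21) and Epcam (-0.74 ± 0.14) fell. Of the 12 neuroendocrine markers, Chga (0.64 ± 0.12) and Ncam1 (0.53 ± 0.11) rose and Insm1 (-0.89 ± 0.15) and Nkx2-1 (-0.48 ± 0.11) fell. Hopx, Epcam, Chga, Ncam1 and Nkx2-1 each lost the call without at least 3 of the 6 arrays. The part of these cell types in the receptor changes was not tested.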
